A study of Parasteatoda tepidariorum with 20 samples.

Results

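The Toll receptor family of the common house spider *Parasteatoda tepidariorum*, with the spaetzle ligands of these receptors, was followed through embryonic development. The members are the gene models whose description in the data table names a protein toll, a toll-like receptor or a protein spaetzle, with tolloid proteases and toll-interacting proteins left out. They are 29 of the 27990 AUGUSTUS gene models listed on the Ptep_1.0 assembly: 25 receptors and 4 spaetzle gene models, carrying 26 gene IDs. Of the receptors, 16 are described as protein toll or toll-like, 3 as Tollo and 6 as a numbered toll-like receptor. These names come from the descriptions in the table, and no further check of orthology was made.

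Toll receptors are transmembrane proteins with leucine-rich repeats outside the cell and a TIR signalling domain inside it. In *Drosophila*, an extracellular protease cascade cleaves Spaetzle, cleaved Spaetzle binds Toll, and the adaptors MyD88 and Tube with the kinase Pelle pass the signal on. The inhibitor Cactus is then degraded and the NF-kappa-B factors Dorsal and Dif enter the nucleus. In the fly the pathway sets the dorsoventral axis from maternal products and later serves immunity, and other fly Toll receptors, Tollo among them, take part in cell rearrangement of the embryonic epithelium.

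Poly(A) mRNA was sequenced from pools of whole embryos of the Osaka isolate kept at 25 °C, in 2 developmental series that came from separate pairs of parents. The 10 stages (st) are, with the age after egg laying, st1 at about 9 h, st2 at 15 h, st3 at 20 to 21 h, st4 at 25 to 26 h, early st5 at 31 to 32 h, late st5 at 36 to 37 h, st6 at 42 to 43 h, st7 at 50 h, st8 at 60 h and st10 at 78 h. Each stage has 1 library per series, so n = 2 at a stage, and the labels name no treatment and no altered gene. The stages were joined into cleavage and blastoderm embryos (st1 to st3), germ disc embryos (st4 to st5 late) and germ band embryos (st7 to st10), and st6 falls between germ disc and germ band.

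Abundance is given as RPKM, the read number of a gene model normalized to its exon length and to the library total. Read totals recovered from the RPKM values ranged from 9160802 to 17019009 per library. As a check of the stage labels, the summed RPKM of 9 hemocyanin and other hemolymph gene models was at most 14.3 before st10 and 1150 and 1440 at st10. The sum of 9 muscle gene models was at most 12.7 RPKM in any library. This sum was between 5.23 and 12.7 RPKM at st1 to st3 and only 3.45 and 3.56 RPKM at st10, so that it did not mark the late stages. Synaptotagmin, synapsin and elav gene models, 33 in all, summed to between 372 and 790 RPKM in every library from st1 on, so that they did not separate early from late stages. At st6 the library of series 2 stood below that of series 1 in 68.8% of all gene models tested, with a median log2 difference of -0.35, and in 7 of the 7 tested members with at least 3 reads in either library. Whole embryos were sampled, so fewer cells that express a gene and less RNA per cell cannot be told apart in any value below.

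Of the 29 members, 10 reached 1 RPKM or more in 2 or more libraries and were tested among 13375 gene models: 7 receptors and 3 spaetzle gene models. Of the other 19, 14 had reads and 5 had 0 reads among the 256712174 reads of all libraries. By the limma F test, 9 of the 10 tested members differed across the stages (adjusted p under 0.05, Benjamini-Hochberg adjustment over all gene models tested), where 79.8% of all tested gene models did. A member that passed only because some stage was high had to differ, so the count says nothing about the family. Changes below are on the log2(RPKM + 1) scale, and SE is the standard error of a change.

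Among the ligands, 2 were highest at st10, 1 was found almost only up to st3, and 1 was close to absent. The spaetzle 3-like gene model aug3.g13823 is found at 464485 to 530418 of scaffold 1733 (plus strand). In *Drosophila*, the spaetzle paralogs are cystine-knot ligands, and some of them serve as neurotrophins of the nervous system. In series 1, aug3.g13823 stood at 0 RPKM (st1), 0.389 (st2), 0.701 (st3), 0.374 (st4), 0.262 (early st5), 0.625 (late st5), 0.286 (st6), 0.371 (st7), 1.78 (st8) and 22.1 (st10). In series 2 the RPKM values in the same order were 0, 0.280, 0.646, 0.113, 0.110, 0.673, 0.189, 0.340, 2.79 and 31.2. Both st10 libraries were above every other library, with 739 and 1209 reads, and both st8 libraries were above all earlier ones. The st10 mean of 26.6 ± 6.45 RPKM (SD, n = 2) was above that of 79.5% of the tested gene models, against 13.2% at st7. Its log2(RPKM + 1) rose by 1.26 from st7 to st8 (SE 0.21, limma adjusted p = 0.011), where 0.546% of all tested gene models rose, and by 3.07 from st8 to st10 (SE 0.21, limma adjusted p = 2.5e-07), where 4.17% rose. A pseudocount of 0.1 ended the call from st7 to st8 (adjusted p = 0.086).

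The spaetzle 5 gene model aug3.g8985, at 184172 to 235624 of scaffold 973 (minus strand), was found at every stage. Its RPKM in series 1 was 2.58 (st1), 1.43 (st2), 0.957 (st3), 0.776 (st4), 1.18 (early st5), 2.00 (late st5), 2.16 (st6), 2.21 (st7), 2.56 (st8) and 6.67 (st10). In series 2 it was 1.52, 0.954, 0.699, 0.873, 1.51, 1.86, 0.378, 2.05, 2.28 and 6.52 RPKM over the same stages. The lowest values of the first 6 stages fell at st4 in series 1 and at st3 in series 2, and the 2 st10 libraries were highest. The rise from st8 to st10 was 1.15 (SE 0.31, limma adjusted p = 0.042). This call lies near the threshold and was lost without a filter on low values, with a minimum RPKM of 5 and with voom weights (adjusted p between 0.051 and 0.083), and with a pseudocount of 0.1 (adjusted p = 0.26).

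The second spaetzle 3-like gene model, aug3.g984, at 124220 to 156154 of scaffold 284 (minus strand), was found mainly up to st3. Series 1 gave 1.69 RPKM (st1), 0.273 (st2), 0.136 (st3), 0.119 (st4), 0.115 (early st5), 0 (late st5), 0.0835 (st6), 0.0812 (st7) and 0 (st8 and st10). Series 2 gave 1.58 RPKM at st1, 1.23 at st2 and 1.81 at st3, and after that only st7 was above 0, at 0.0993 RPKM. The series were alike at st1 and lay apart at st2 and st3, and both were near 0 from st4 on. In reads these are 55 in the 6 libraries of st1 to st3 and 5 in the 14 later ones. Per library read that is a ratio of 31.8 (exact 95% interval 12.8 to 102.0, counting error only). From st1 to st3 to the germ disc embryos its log2(RPKM + 1) fell by 0.94 (SE 0.19, limma adjusted p = 4.3e-04), with -0.55 in series 1 and -1.34 in series 2. The spaetzle 4-like gene model aug3.g4804 had 21 reads in all, never more than 5 in a library or 0.108 RPKM, and was not tested.

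**Figure D1:**
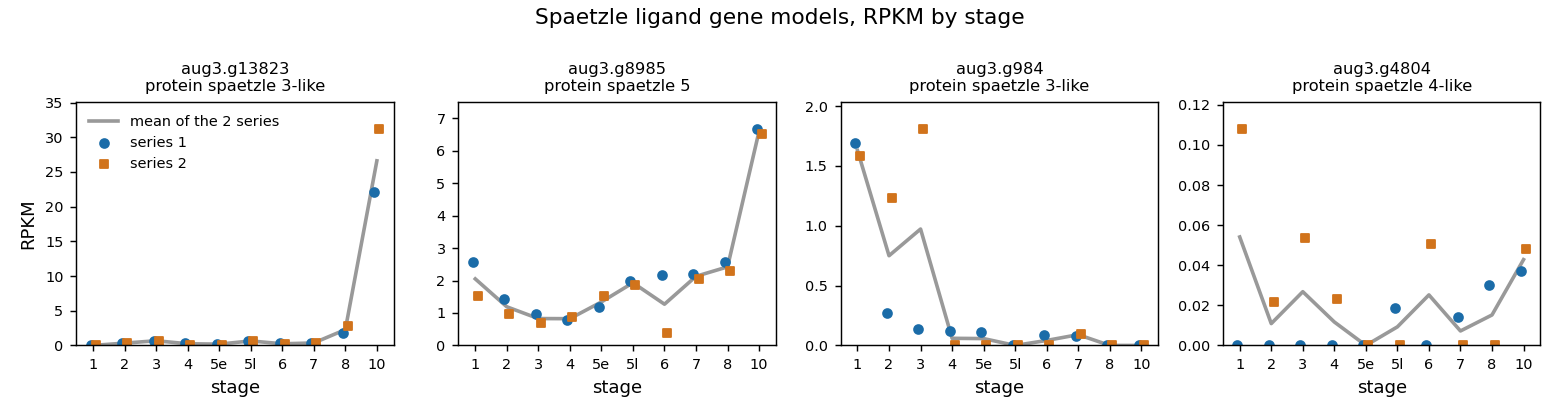
RPKM (vertical axis, a scale of its own in each panel) of the 4 spaetzle gene models by stage (horizontal axis, 5e and 5l for early and late st5), with points for series 1, squares for series 2 and a line through the mean of the 2. The spaetzle 3-like gene model aug3.g13823 reached 22.1 and 31.2 RPKM at st10 and aug3.g8985 6.67 and 6.52, while aug3.g984 was above 0.2 RPKM only up to st3 and aug3.g4804 never passed 0.108.

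The 3 Tollo gene models were the most abundant receptors by their highest stage mean. In *Drosophila*, Tollo (Toll-8) is one of the long Toll receptors, with many leucine-rich repeats, and is expressed in segmental stripes. The Tollo gene model aug3.g6063 (gene ID LOC107454132, scaffold 716, 504600 to 543436, plus strand) was low up to st5 late and reached the highest level of the family. Its series 1 values were 0.475 RPKM (st1), 1.10 (st2), 1.18 (st3), 0.428 (st4), 1.70 (early st5), 1.54 (late st5), 24.9 (st6), 27.6 (st7), 18.3 (st8) and 42.0 (st10). Its series 2 values were 0.382, 1.36, 2.03, 0.570, 0.653, 1.50, 8.95, 25.2, 12.7 and 36.6 RPKM. None of the 12 libraries up to st5 late passed 2.03 RPKM and none of the 8 later ones was under 8.95, and in both series st8 lay below st7 and st10.

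The rise of aug3.g6063 from st5 late to st6 was 2.67 (SE 0.37, limma adjusted p = 0.0028), where 0.396% of all tested gene models rose. The 2 st6 libraries themselves lay apart, at 24.9 and 8.95 RPKM. By st10 the mean was 39.3 ± 3.85 RPKM (SD, n = 2), above that of 85.8% of the tested gene models. The step from st8 to st10 was 1.30 with a limma adjusted p of 0.059. With the series as a replicate block its adjusted p was 0.038, and without both st6 libraries it was 0.0064.

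The Tollo gene model aug3.g2549 (LOC107449043, scaffold 396, 411486 to 432206, plus strand) was high at both ends of the time course and low at the germ disc. In series 1 it was at 6.81 RPKM (st1), 5.83 (st2), 2.92 (st3), 0.413 (st4), 0.701 (early st5), 2.22 (late st5), 6.10 (st6), 4.75 (st7), 3.60 (st8) and 7.62 (st10). In series 2 the course was 8.22, 5.62, 2.95, 0.335, 0.955, 2.19, 1.26, 5.34, 3.02 and 5.64 RPKM. Both series were lowest at st4, and the series lay furthest apart at st6, at 6.10 and 1.26 RPKM. From st3 to st4 its log2(RPKM + 1) fell by 1.52 (SE 0.37, limma adjusted p = 0.0057), where 26.5% of all tested gene models fell. Between st1 and st10 the mean change was -0.17 (limma adjusted p = 0.73), with 0.14 in series 1 and -0.47 in series 2.

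The third Tollo gene model, aug3.g1692 (LOC107447341, scaffold 338, 348236 to 387170, plus strand), followed a like course with a lower start. Its RPKM in series 1 was 3.18, 1.02, 0.726, 0.544, 0.291, 0.977, 2.34, 3.07, 5.61 and 6.34 in stage order. Its RPKM in series 2 was 2.87, 1.46, 1.17, 0.583, 0.716, 1.46, 0.681, 5.41, 5.59 and 6.98. The low point was st5 early in series 1 and st4 in series 2, and the highest library was st10 in both. The step from st1 to st2 was -0.85 with a limma adjusted p of 0.057, and of 0.048 with the replicate block. Over the whole course, from st1 to st10, it rose by 0.93 (SE 0.31, limma adjusted p = 0.019), a call that a pseudocount of 0.1 ended (adjusted p = 0.082).

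Of the gene models described as protein toll or toll-like, 3 passed the filter, and their courses differed. The gene model aug3.g19333 (LOC107446715, scaffold 3202, 8396 to 62896, plus strand), described as protein toll, was under 0.5 RPKM in all 12 libraries up to st5 late. Its values in series 1 were 0.155 RPKM (st1), 0.133 (st2), 0.0533 (st3), 0.0698 (st4), 0.179 (early st5), 0.0814 (late st5), 0.620 (st6), 0.999 (st7), 1.18 (st8) and 4.58 (st10). In series 2 they were 0.285, 0.240, 0.471, 0.0513, 0.150, 0.0862, 0.368, 1.22, 0.888 and 3.55 RPKM. The 2 st10 libraries stood far above the others, of which the highest had 1.22 RPKM. From st8 to st10 its log2(RPKM + 1) rose by 1.31 (SE 0.20, limma adjusted p = 5.2e-04), a call that a pseudocount of 0.1 ended (adjusted p = 0.087). Across the 20 libraries its log2(RPKM + 1) had a Pearson r of 0.88 with the spaetzle 3-like gene model aug3.g13823 and 0.85 with the Tollo gene model aug3.g6063, where the points share their libraries and stages.

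The toll-like gene model aug3.g11043 (LOC107457297, scaffold 1251, 7486 to 43746, plus strand) was the member that differed between the series. In series 1 it stood at 0.373 RPKM (st1), 1.85 (st2), 1.87 (st3), 3.05 (st4), 3.49 (early st5), 3.70 (late st5), 3.94 (st6), 4.45 (st7), 4.35 (st8) and 5.54 (st10). In series 2 it stood at 0.439, 0.480, 0.908, 1.92, 1.78, 1.33, 0.908, 1.49, 1.76 and 1.14 RPKM. Series 1 was higher at 9 of the 10 stages, by up to 4.86 times at st10, and at st1 the 2 libraries were alike. With stage as a factor, series 2 was lower by 0.87 (SE 0.14, limma adjusted p = 0.003), the only one of the 10 tested members called between the series. Of all tested gene models, 7.95% were lower and 2.51% higher in series 2, and without a stage term the adjusted p of aug3.g11043 was 0.16. Its F test over the stages gave an adjusted p of 0.38, and of 0.01 with the replicate block. From st1 to st10 its mean change was 1.41 (SE 0.61, limma adjusted p = 0.060), and with the block the SE was 0.32 and the adjusted p 0.0016. Series 1 changed by 2.25 and series 2 by 0.57, and the 2 values were not tested against each other.

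The remaining tested receptors were found almost only in embryos up to st3. The toll-like receptor 6 gene model aug3.g494 (LOC107443661, scaffold 251, 759988 to 763754, plus strand) had 0.838 and 0.584 RPKM in series 1 and 2 at st1, 1.62 and 1.56 at st2, 1.47 and 1.13 at st3, and 0.206 and 0.126 at st4. In the 12 libraries after st4 it was between 0 and 0.0954 RPKM, so that the 6 early libraries and the 14 later ones did not overlap. The share of all tested gene models that separate in this way was not counted. Only libraries of st1 to st3 brought aug3.g494 to 1 RPKM, so it was tested only through the group where it is high. It had 292 reads in the first 6 libraries and 37 in the other 14, a ratio per library read of 22.8 (exact 95% interval 16.2 to 33.1, counting error only). Its log2(RPKM + 1) rose by 0.60 from st1 to st2 (SE 0.15, limma adjusted p = 0.0090), where 9.78% of all tested gene models rose, and fell by 0.98 from st3 to st4 (SE 0.15, limma adjusted p = 1.7e-04). The rise was lost with a pseudocount of 0.1 (adjusted p = 0.082) and with voom weights (adjusted p = 0.10), and the fall was not.

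The short toll-like gene model aug3.g2041 (LOC107448066, scaffold 362, 259676 to 260296, plus strand) spans 621 bases. It had 1.39 and 0.709 RPKM at st1, 1.27 and 0.143 at st2, 0.477 and 0.176 at st3, and 0 in each of the 14 later libraries. These RPKM values rest on 30 reads, against 0 later ones, and the exact 95% lower limit of the ratio per library read was 22.1 (counting error only). From st1 to st3 to the germ disc embryos it fell by 0.70 (SE 0.15, limma adjusted p = 6.8e-04), with -0.40 in series 2 alone.

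Over the 9 consecutive steps of the time course the 10 tested members had 6 rises and 2 falls called, in 6 gene models, where 3.04% of all tests were called as rises and 5.42% as falls. The fall of aug3.g494 and that of aug3.g2549 from st3 to st4 were the only ones, and 3 of the rises were from st8 to st10. Calls of aug3.g13823, aug3.g19333 and aug3.g494 are among the 8. The first 2 reached 1 RPKM only in germ band libraries and aug3.g494 only in libraries of st1 to st3, so the counts say nothing about the family. In fits of only the libraries of each pair of stages the 6 rises were no longer called (limma adjusted p between 0.061 and 0.77). With a pseudocount of 0.1 the split was 3 rises and 5 falls, of which 4 calls were shared with the 8 above.

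**Figure D2:**
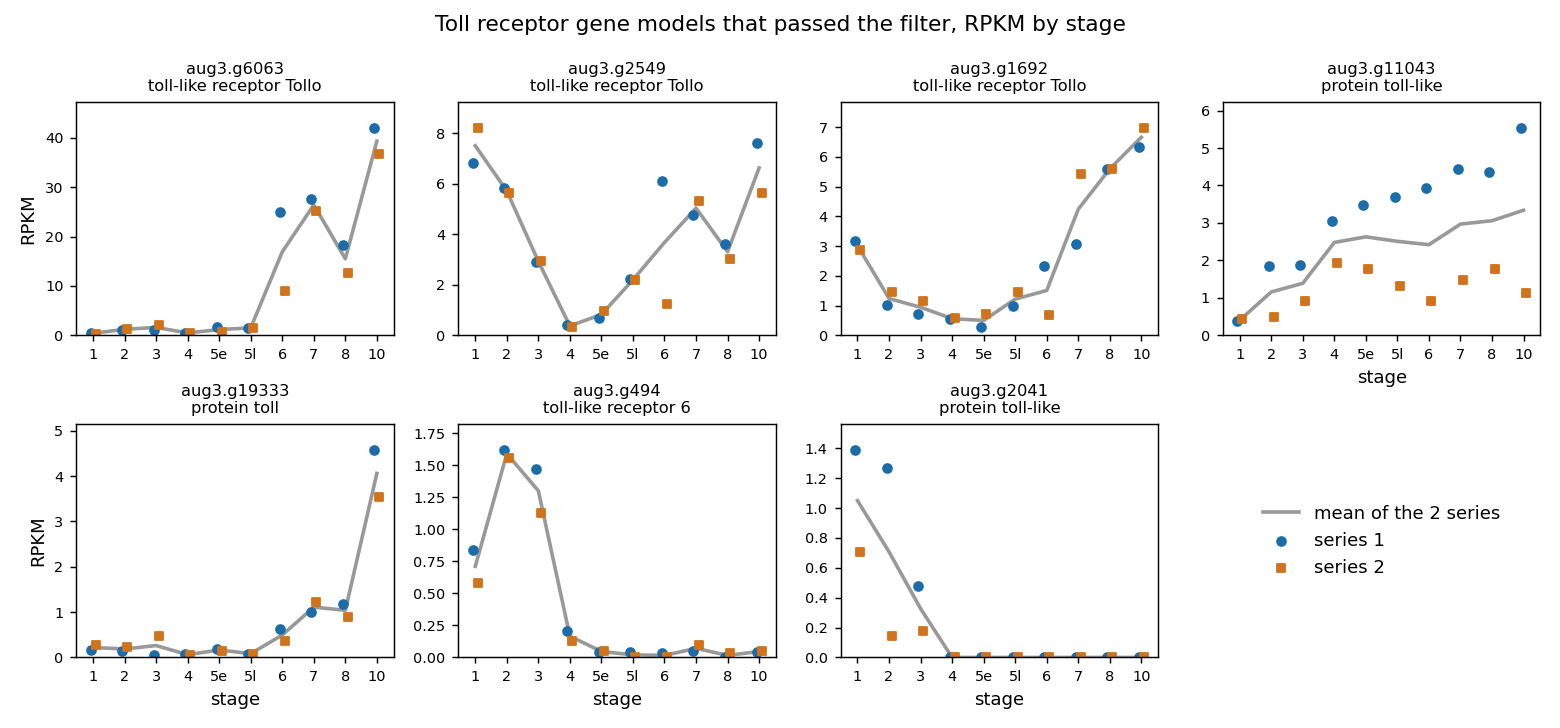
RPKM (vertical axis, a scale of its own in each panel) of the 7 receptor gene models that passed the filter, by stage (horizontal axis), with points for series 1, squares for series 2 and a line through the mean of the 2. The Tollo gene model aug3.g6063 was at 2.03 RPKM or less up to st5 late and at 36.6 and 42.0 RPKM at st10, aug3.g2549 was lowest at st4, the series of aug3.g11043 lay apart after st1, and aug3.g494 and aug3.g2041 were near 0 or at 0 from st5 on.

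Cleavage and blastoderm embryos were compared with germ disc embryos to ask which members were present before the disc formed. Between these groups 5 of the 10 tested members fell and 1 rose, where 43.3% of all tested gene models fell and 24.4% rose. The falls were those of the Tollo gene models aug3.g2549 (-1.60, SE 0.22, limma adjusted p = 1.3e-05) and aug3.g1692 (-0.59, SE 0.18, limma adjusted p = 0.0098), of the receptors aug3.g494 (-1.01, SE 0.09, limma adjusted p = 1.3e-07) and aug3.g2041, and of the ligand aug3.g984. The toll-like gene model aug3.g11043 rose by 0.86 (SE 0.35, limma adjusted p = 0.043), which no longer held without the filter on low values (adjusted p = 0.077). The median change was -0.36 over the members and -0.26 over all tested gene models. Median-ratio scaling moves that median by 0.24 and kept all 6 calls. The gene models aug3.g494, aug3.g2041 and aug3.g984 reached 1 RPKM only in libraries of st1 to st3 and were tested only through the group where they are high, so the count of falls says nothing about the family.

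In RPKM, the 6 libraries of st1 to st3 had a median of 5.72 for aug3.g2549 (2.92 to 8.22), and the 6 germ disc libraries a median of 0.828 (0.335 to 2.22), with no overlap. It was not counted how many of all tested gene models separate in this way. For aug3.g1692 the medians were 1.31 (0.726 to 3.18) and 0.649 (0.291 to 1.46), and the groups overlapped. The Tollo gene model aug3.g6063 was alike in both groups, with means of 1.09 and 1.07 RPKM.

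Germ disc embryos were compared with germ band embryos to follow the family into segmentation. Here 6 of the 10 tested members rose and 0 fell, where 28.2% of all tested gene models rose and 18.5% fell. The 3 Tollo gene models all rose: aug3.g6063 by 3.71 (SE 0.22, limma adjusted p = 6e-09), aug3.g1692 by 1.88 (SE 0.18, limma adjusted p = 9.1e-07) and aug3.g2549 by 1.54 (SE 0.22, limma adjusted p = 4e-05) on the log2(RPKM + 1) scale. The protein toll gene model aug3.g19333 rose by 1.34 (SE 0.11, limma adjusted p = 2.7e-07). Both ligands that were highest at st10 rose as well, aug3.g13823 by 1.88 (SE 0.12, limma adjusted p = 2e-08) and aug3.g8985 by 0.90 (SE 0.18, limma adjusted p = 7.9e-04). The median change of the tested members was 1.12, against 0.05 over all tested gene models. Because aug3.g13823 and aug3.g19333 reached 1 RPKM only in germ band libraries, they were tested only through the group where they are high, and neither the count of rises nor the median is evidence about the family.

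The mean RPKM was 25.4 times higher in the germ band libraries for aug3.g6063 (27.0 against 1.07), 7.23 times for aug3.g1692 (5.50 against 0.761), 4.40 times for aug3.g2549 (5.00 against 1.14) and 20.1 times for aug3.g19333 (2.07 against 0.103). In each of these receptors the 6 germ band libraries lay above the 6 germ disc libraries. How many of all tested gene models separate in this way was not counted, and aug3.g19333 passed the filter only through germ band libraries. The spaetzle 3-like gene model aug3.g13823 had 27.2 times more (9.76 against 0.359 RPKM), but its st7 libraries, at 0.371 and 0.340 RPKM, lay within the germ disc range of 0.110 to 0.673. Spaetzle 5, aug3.g8985, had 2.72 times more, and its lowest germ band library (2.05 RPKM) was just above its highest germ disc library (2.00 RPKM). The hemolymph gene models named above also rose here, 9 of 9, and were abundant at st10 alone, where aug3.g13823 and aug3.g19333 had their largest step, and whether these move with blood cells was not tested. At st7 the hemolymph sum was at most 2.25 RPKM and aug3.g6063 stood at 25.2 RPKM or more. The cell source of aug3.g6063 was not tested either.

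Between the first and the last stage, 5 tested members rose and 3 fell, where 23.2% of all tested gene models rose and 34.9% fell. The 3 that fell reached 1 RPKM only in libraries of st1 to st3. Only germ band libraries brought aug3.g13823 and aug3.g19333 to 1 RPKM, so these counts say nothing about the family. The largest changes of the members were those of aug3.g6063, at 4.81 (SE 0.37, limma adjusted p = 6.1e-08), and of aug3.g13823, at 4.77 (SE 0.21, limma adjusted p = 1.5e-10). The others that rose were aug3.g19333 by 2.05 (SE 0.20, limma adjusted p = 5.8e-07), aug3.g8985 by 1.34 (SE 0.31, limma adjusted p = 0.0019) and aug3.g1692. The members that fell were aug3.g984 (-1.40, SE 0.32, limma adjusted p = 0.0019), aug3.g2041 (-1.01, SE 0.25, limma adjusted p = 0.0033) and aug3.g494 (-0.71, SE 0.15, limma adjusted p = 0.0011). Median-ratio scaling, which moves the median of all gene models by 0.24 here too, kept these 8 calls and added that of aug3.g11043 (limma adjusted p = 0.033).

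For the 2 receptors with the highest stage mean, the tested gene models of most similar course were looked up by Pearson r of log2(RPKM + 1) over the 20 libraries. Nearest to aug3.g6063 were aug3.g9836 (tyrosine-protein kinase ROS, r = 0.972), aug3.g10054 (uncharacterized, r = 0.971) and aug3.g1356 (the ligand Wnt-11b-2, r = 0.967). Nearest to aug3.g2549 were aug3.g11377 (cyclin-dependent kinase 4, r = 0.942), aug3.g27894 (a hypoxanthine-guanine phosphoribosyltransferase-like protein, r = 0.939) and aug3.g8085 (transmembrane protein 178B, r = 0.936). They were picked as the nearest of 13375, so the size of r carries no further weight.

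Below the filter, 14 members had reads, and in 7 of these most reads came from the early embryo. The authors kept only alignments that passed a uniqueness filter, so reads shared by near-identical receptors can be missing from all of them. These 7, with 75% or more of their reads in st1 to st3, are all described as protein toll or toll-like: aug3.g18266, aug3.g18268, aug3.g12132, aug3.g18264, aug3.g12127, aug3.g23343 and aug3.g18079. Together they had 74 of the 65957172 library reads of st1 to st3 and 4 of the 190755002 later ones, which describes them only, since this share picked them. Of the 74 early reads, 46 came from series 1 and 28 from series 2. By comparison, 1005 of 4005 untested gene models with 4 to 40 reads (25.1%) had 75% or more of their reads there, and among members with as few reads 7 of 9 did.

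The largest of these was aug3.g18266, with 30 reads up to st3 and 1 later, and at most 0.748 RPKM in a library. It shares the gene ID LOC107445005 with aug3.g18264, which had 7 reads up to st3 and 0 later and lies just upstream on the same strand of scaffold 2795. Whether the pair are pieces of 1 gene was not tested. A further 4 members begin at the first base of their scaffold (aug3.g11042, aug3.g13589, aug3.g20240 and aug3.g23343), where a gene model can be cut short.

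Other weak members also had reads from st4 on. The toll-like receptor 13 gene model aug3.g27217 had 3 reads up to st3 and 104 after, and at st7 stood at 0.486 and 0.635 RPKM. The toll-like receptor 6 gene model aug3.g25912 had 32 reads up to st3 and 207 after, with 0.578 and 0.757 RPKM at st10 and 0.620 and 0.0359 RPKM at st6. In a fit without the filter, aug3.g27217 rose from germ disc to germ band embryos by 0.45 (SE 0.04, limma adjusted p = 9.7e-07) and aug3.g25912 by 0.40 (SE 0.10, limma adjusted p = 0.0062). The protein toll gene model aug3.g17600 had reads at every stage, with 0.352 and 0.469 RPKM at st2, 0.0839 and 0.0415 at st8 and 0.606 and 0.479 at st10. The toll-like receptor 2 gene model aug3.g20941 had 63 reads, aug3.g17940 (toll-like receptor 3) 6 and aug3.g20240 3, of which 2 were from st1 to st3. Named above among the mostly early members, aug3.g18079 had 4 reads, 3 of them from st1 to st3. The gene models at 0 reads were aug3.g11042, aug3.g13589, aug3.g17939, aug3.g21241 and aug3.g25512.

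**Figure D3:**
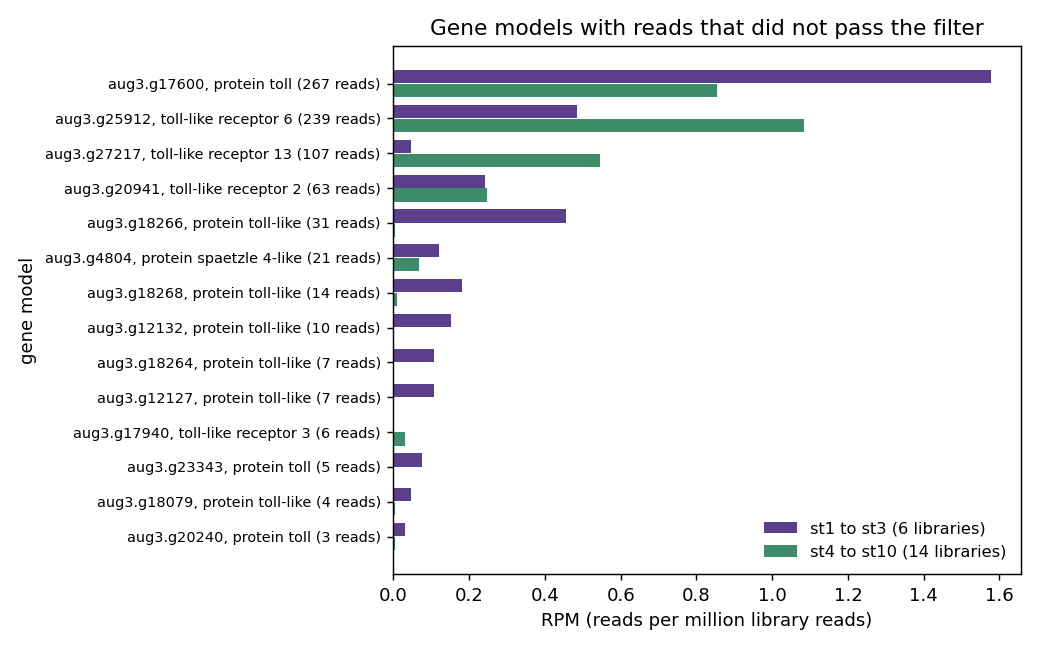
RPM, reads normalized to the library total (horizontal axis), of the 14 members with reads that did not pass the filter (vertical axis, with the total reads of each), summed over the 6 libraries of st1 to st3 and over the 14 libraries of st4 to st10. The gene model aug3.g18266 had 30 reads in the first group and 1 in the second, and aug3.g27217 had 3 and 104.

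Gene order was taken from RefSeq's annotation of the later assembly CAS_Ptep_4.0, used for order only, in which 25 of the 26 gene IDs were found and 24 placed. Of these, 11 lay in 3 groups of neighbours with at most 5 protein-coding genes between 1 member and the next. In the largest group, 6 gene IDs with 8 gene models lay within 12 protein-coding genes: aug3.g25512, aug3.g18264 with aug3.g18266, aug3.g18268, aug3.g12127, aug3.g11042 with aug3.g12132, and aug3.g11043. Of these 8, aug3.g11043 alone passed 1 RPKM in any library and had 296 reads up to st3 and 2612 after, whereas the other 7 had reads up to st3 or none but for 3 later reads in all. The slit homolog 3-like gene models aug3.g18263 and aug3.g12128, which are no members and lie in the same group, had 28 reads up to st3 against 4 later and 12 against 1.

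The Tollo gene model aug3.g6063 and the toll-like receptor 6 gene model aug3.g494 are direct neighbours in that order, with no protein-coding gene between them. Both were low at st4, and they lay apart after it. At early and late st5 aug3.g494 was at 0.0493 RPKM or less and aug3.g6063 at 0.653 RPKM or more. From st6 on the former was at 0.0954 RPKM or less and the latter at 8.95 RPKM or more. In the remaining group, aug3.g13589, aug3.g17600 and aug3.g20240 lay within 4 protein-coding genes, with 0, 267 and 3 reads.

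The signalling genes inside the cell were read from lists of descriptions. Among adaptors and kinases, 15 of 16 gene models were tested, of which 2 rose and 9 fell from st1 to st3 to the germ disc, and 6 rose and 2 fell from germ disc to germ band. Of all tested gene models, 24.4% rose and 43.3% fell in the former comparison, and 28.2% rose and 18.5% fell in the latter. With median-ratio scaling 5 adaptors and kinases rose and 3 fell to the germ band. MyD88 is the adaptor that binds the TIR domain of Toll. The gene model aug3.g17480, described as MyD88, is found at 68679 to 89534 of scaffold 2542 (minus strand). It was found in every library, at 9.53 and 7.21 RPKM at st1, 2.16 and 1.61 at st4 and 6.55 and 4.94 at st10. It fell by 1.03 to the germ disc stages (SE 0.16, limma adjusted p = 6.5e-05) and rose by 0.76 to the germ band stages (SE 0.16, limma adjusted p = 0.0016). A second one, MyD88-like aug3.g17479, lies on the same scaffold and strand from 53757 to 60244. It differed widely between the series up to st3, at 4.50 and 0.291 RPKM at st1, 11.0 and 0.587 at st2 and 5.43 and 0.360 at st3, and was at most 0.379 RPKM in any library after that. Its fall is among the 9 above, and it passed the filter only through series 1 libraries of st1 to st3, so that fall is no evidence about the list. The remaining MyD88 gene model, aug3.g23017, had at most 0.242 RPKM and did not pass the filter. No gene model is described as pelle or tube in the table.

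The adaptor list's most abundant gene model was aug3.g3694, described as MAP3K7 (in vertebrates TAK1, a kinase that acts between TRAF6 and NF-kappa-B), with a mean of 70.1 RPKM. It rose by 1.15 from st1 to st3 to the germ disc (SE 0.25, limma adjusted p = 9e-04). The other MAP3K7 gene model, aug3.g12985, chosen after its values were seen, fell by 4.42 (SE 0.19, limma adjusted p = 4.2e-11). IRAK4, in vertebrates a kinase bound by MyD88, was also chosen after its values were seen. Its gene model aug3.g26918 fell by 0.68 (SE 0.17, limma adjusted p = 0.0027) and then rose by 0.91 (SE 0.17, limma adjusted p = 5.2e-04), a course like that of MyD88 aug3.g17480.

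**Figure D4:**
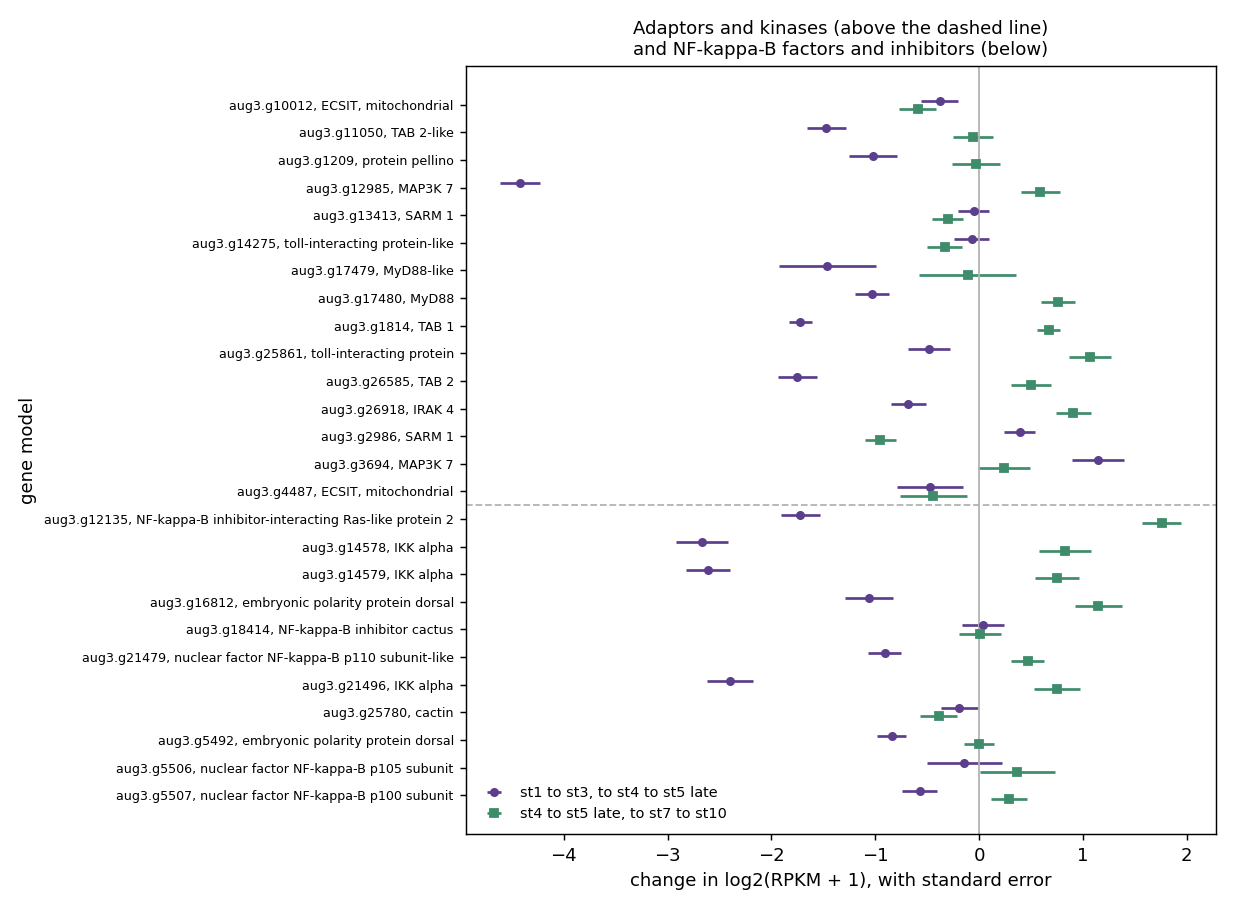
Change in log2(RPKM + 1) with its standard error (horizontal axis) of tested gene models (vertical axis). They are 15 adaptors and kinases and 11 of the NF-kappa-B list, in which IKK is a kinase of the inhibitor. ECSIT, TAB, SARM and IKK are short for the full descriptions. Points are changes from st1 to st3 to the germ disc stages and squares from these to the germ band stages, and 9 of the 15 upper and 8 of the 11 lower points are calls to the left of 0.

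The NF-kappa-B list holds factors, inhibitors, subunits of the kinase that acts on the inhibitor, and other gene models named for the inhibitor. All 11 were tested. From st1 to st3 to the germ disc 0 rose and 8 fell, where 24.4% of all tested gene models rose and 43.3% fell. To the germ band 6 rose and 0 fell, where 28.2% of all tested gene models rose and 18.5% fell. With median-ratio scaling 1 rose and 8 fell to the germ disc. Of the 8 that fell, 3 share 1 gene ID, LOC107440477, and these 3 are also among the 6 that rose. They are described as inhibitor of nuclear factor kappa-B kinase subunit alpha, a part of the kinase and not an inhibitor. Dorsal is the NF-kappa-B factor that Toll activates in the fly embryo. The dorsal gene model aug3.g5492 had 69.0 and 44.8 RPKM at st1, 4.75 and 5.17 at st2 and 5.40 and 6.06 at st10, so that the 2 st1 libraries stood far above all others. It changed by -3.07 from st1 to st10 (SE 0.24, limma adjusted p = 7.1e-08) and by 0.00 from germ disc to germ band. The other dorsal gene model, aug3.g16812, also stood highest at st1, at 18.5 and 27.5 RPKM, with 3.19 and 3.87 at st2 and 10.5 and 12.1 at st10. It fell by 1.06 to the germ disc stages (SE 0.23, limma adjusted p = 9.7e-04) and rose by 1.15 to the germ band stages (SE 0.23, limma adjusted p = 9.4e-04).

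Cactus is the inhibitor that holds Dorsal in the cytoplasm. Its gene model aug3.g18414 had 19.9 and 35.4 RPKM at st1, 9.57 and 6.08 at st2 and 17.2 and 12.4 at st10. The changes were 0.04 to the germ disc (SE 0.20, limma adjusted p = 0.86) and 0.01 to the germ band (SE 0.20, limma adjusted p = 0.99). With median-ratio scaling the former was the 1 rise of the list, at 0.37 (SE 0.16, limma adjusted p = 0.048). Cactin, aug3.g25780, a partner of Cactus in the fly, was the most abundant of the list, with a mean of 27.0 RPKM and no call in either comparison.

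Extracellular proteases and serpins of the kind that form the cascade upstream of spaetzle had 30 gene models, 8 of them tested. To the germ disc 2 rose and 5 fell, and to the germ band 0 rose and 3 fell. Of all tested gene models 24.4% rose and 43.3% fell in the former comparison, and 28.2% rose and 18.5% fell in the latter. Of the 5 that fell to the germ disc, aug3.g13559 and aug3.g13560 share the gene ID LOC107439086. The filter was passed by aug3.g11508, aug3.g12963 and aug3.g15441 only through libraries of st1 to st3. It was passed by aug3.g8879, which rose and then fell, only through germ disc libraries, so the counts say nothing about the list. The most abundant, the serpin B6-like gene model aug3.g13559, was between 114 and 229 RPKM in the libraries of st1 to st3 and fell by 5.12 (SE 0.19, limma adjusted p = 9.4e-12). Nudel, in the fly an upstream protease of the cascade, was chosen after its values were seen. Its gene model aug3.g12963 had 161 and 237 RPKM at st1 and 0.0551 and 0.0238 RPKM at st10, and fell by 5.35 to the germ disc (SE 0.33, limma adjusted p = 2.8e-09). The only gene model like pipe, the fly sulfotransferase that marks the ventral eggshell, was aug3.g12611, with 1.78 and 1.77 RPKM at st10 and at most 0.873 before. It rose by 1.40 from st1 to st10 (SE 0.22, limma adjusted p = 8.7e-05). Only its st10 libraries reached 1 RPKM, so it was tested only through the stage where it is high, and the call carries no further weight.

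Of 7 recognition proteins, which bind microbial cell walls, 3 were tested. To the germ disc 1 rose and 1 fell, where 24.4% of all tested gene models rose and 43.3% fell. The 1 that fell, aug3.g12678, reached 1 RPKM only in libraries of st1 and st2, so it was tested only through the group where it is high. To the germ band 1 fell, where 18.5% of all tested gene models fell. With the replicate block and with median-ratio scaling 2 of the 3 fell to the germ band. The most abundant was peptidoglycan-recognition protein 1, aug3.g20166. It had 0.651 and 0 RPKM at st1, 7.62 and 10.5 at st3 and 0.0859 and 2.15 at st10, and fell from germ disc to germ band by 1.18 (SE 0.45, limma adjusted p = 0.045).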

How the data were processed

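Per the labels and the methods of the study, the authors used MiSeq reads, BLAT alignment to Ptep_1.0, a filter that demanded unique placement, and strand-specific counting by HTSeq 0.6.1p1 on AUGUSTUS gene models, and deposited abundance as RPKM. The table has 1 RPKM column for each of the 20 samples and 0 others with values. Deposited coverage tracks were left aside.

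Library totals (9160802 to 17019009) and exon lengths were recovered from the RPKM values: for 21737 of 21765 gene models with a value (99.87%), all libraries gave whole reads within 0.01. The limit that a count of 0 allows is 3 reads, and read intervals cover counting error only. RPKM are not counts, so tests used log2(RPKM + 1), a scale that understates the change of low genes, with limma 3.58.1 in R 4.3.3 (trend) over 10 stage means, for the 13375 gene models that reached 1 RPKM in 2 or more samples, and with Benjamini-Hochberg adjustment. Calls are adjusted p under 0.05. Scripts were tested on simulated data. Python 3.11.15, numpy 2.4.6, pandas 2.3.3 and matplotlib 3.10.9 were used.

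Alternatives were median-ratio scaling, no filter, a pseudocount of 0.1, a filter at 5 RPKM, the replicate block, voom weights on recovered reads, only the stages compared, no st6 samples, each series alone and, between series, no stage term. The replicate number names the pair of parents and so pairs the samples. Over 45 pairs of stages, the differences between the series had a median correlation of 0.24 (-0.06 to 0.7).

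The members and the pathway lists were chosen with earlier results of these data known. Tested members were all named, with stage values for the 8 most abundant. From each pathway list the most abundant tested gene model was named, with those described as dorsal, cactus, MyD88, pelle or tube. Of the adaptor list, 5 letter matches of unrelated genes (such as tuberin) were dropped.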

Additional observations from a re-analysis of the deposited data

Results flagged for a closer look

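The changes of the tested members from st1 to st10, from st1 to st3 to the germ disc and from germ disc to germ band were set side by side for the 2 series, without the consecutive steps. In 6 of these the signs were opposite, each series having 1 library per stage, and the difference between the series was not tested. From st1 to st10, aug3.g2549 changed by 0.14 on the log2(RPKM + 1) scale in series 1 and by -0.47 in series 2 (difference -0.62). From germ disc to germ band embryos, aug3.g11043 changed by 0.39 and -0.12 (difference -0.50) and aug3.g984 by -0.07 and 0.05 (difference 0.11). From st1 to st3 to the germ disc embryos, aug3.g8985 changed by -0.19 and 0.23 (difference 0.41), aug3.g6063 by 0.18 and -0.20 (difference -0.38) and aug3.g13823 by 0.08 and -0.01 (difference -0.09). None of these 6 mean changes was called by limma.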

How the results depend on the processing

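With n = 2 at each stage, single steps rest on the spread shared by all stages, and levels near 3 reads cannot be followed. None of the 29 single changes called turned its direction in 273 alternative values, and 17 of these values, for 9 of the changes, were no longer past the threshold. Dropping the filter, raising it to 5 RPKM or adding the replicate block leaves a change between stages as it was. So does fitting only the stages compared or leaving out st6, and such fits could not turn its direction. Each series alone gave no adjusted p and could not lose a call, so neither count measures how robust the calls are. Without the filter 24 members were tested, of which 15 differed across the stages (9 in the filtered fit) and 11 changed from st1 to st3 to the germ disc (6). With a minimum RPKM of 5 only 5 members were tested, which leaves 5 that differed across the stages, 4 steps (8), 4 changes from st1 to st10 (8), 2 from st1 to st3 to the germ disc (6) and 0 between the series (1, and 0 at an unadjusted p under 0.05). A fit of only the 4 libraries of each step called 2 steps, and its 6 lost rises had limma adjusted p between 0.061 and 0.77. Without a stage term 0 members differed between the series, with 1 at an unadjusted p under 0.05.

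With the replicate block, that is the series as a term beside stage, 10 members differed across the stages, 10 steps were called, 9 members changed from st1 to st10, 6 from st1 to st3 to the germ disc and 6 from there to the germ band. Apart from the calls gained by aug3.g11043, aug3.g6063 and aug3.g1692 that are given with their values above, the block changed no call of a member.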
